A study of Mus musculus with 9 samples.

Results

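Elapor1 encodes a membrane protein of the late endosome and lysosome, and its mRNA was measured in mouse liver lacking 1 or both of the nuclear receptor corepressors SMRT and NCoR. The members were the deposited rows whose single gene symbol is Elapor1, which gave 1 probe set (17409343, Entrez gene 229722) of 41345, and so 1 gene of the 22180 with a single symbol. No further probe set listed Elapor1 together with other genes. The gene was selected on its measured values in these same arrays, being higher in SMRT KO and in double KO livers than in controls, so its levels and differences are a description here and carry no test.

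The study holds 3 kinds of liver, each from 3 individual mice with 1 array per mouse. Double KO mice (labelled SMRT and NCoR KO) lacked both corepressors in the liver, SMRT KO mice lacked SMRT there, and control mice (SMRT and NCoR fl/fl) carried floxed alleles of both genes without deletion. All 9 mice were euthyroid females aged 7 to 9 weeks, of a mixed 129SV/B6 background, fed standard chow. The labels name neither the Cre driver behind the liver-specific deletions nor which Ncor1 allele SMRT KO mice carried, and no group lacked NCoR alone. The genotypes were not checked on these arrays. The deposited values are log2 expression values made with RMA, a method that removes background, normalizes arrays to each other and joins the probes of a probe set.

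SMRT and NCoR are large scaffold proteins that bind nuclear receptors, such as those for thyroid hormone and retinoic acid, and bring histone deacetylase to the receptors' target genes, which keeps transcription low until ligand arrives. ELAPOR1 spans the membrane once, carries a domain like that of the mannose 6-phosphate receptors, and was first described in human endometrium as a gene raised by estrogen. It has been linked to autophagy in human cells, and in mouse pancreatic beta cells, where it is also called inceptor, it promotes the clathrin-dependent uptake of the insulin and IGF1 receptors. It is abundant in secretory cells such as those of the pancreas and stomach.

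The window around an annotated start of Elapor1 is shown because the level of this gene's RNA is what was measured. It was matched by gene identifier in a RefSeq promoter table of build GRCm38.p6 and runs from 250 bases before to 50 bases after the start, on the minus strand of chromosome 3 (chr3:108536492-108536791). Capitals mark the single match, 195 bases before the start, to CANNTG, the E-box bound by basic helix-loop-helix factors.
Elapor1: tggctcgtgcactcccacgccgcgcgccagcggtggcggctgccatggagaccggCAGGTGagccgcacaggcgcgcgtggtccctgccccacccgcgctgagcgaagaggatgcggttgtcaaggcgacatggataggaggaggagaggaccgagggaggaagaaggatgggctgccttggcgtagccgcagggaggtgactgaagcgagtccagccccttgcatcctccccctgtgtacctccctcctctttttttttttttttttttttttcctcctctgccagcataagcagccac
The annotated gene reaches 204 bases further upstream than this start, so most of the stretch before the start, the match included, lies inside the gene as annotated. The window held 62.3% G and C, against a median of 52.7% over all 32851 windows of this length in the table, and 21 CG pairs against a median of 7. It also held a run of 23 T bases. On either strand it held 0 matches to AGGTCA, the half-site of many nuclear receptors, which 16.3% of all windows hold. Likewise it held 0 matches to the estrogen receptor palindrome (GGTCA and TGACC with 3 bases between), found in 0.07% of windows, and 0 to CACGTG, found in 7.15%. That form is the core of the element bound by the lysosomal regulator TFEB and is itself a case of CANNTG, which 72.3% of windows hold. These are descriptions of letters within 300 bases and say nothing of sites elsewhere.

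Elapor1 was at its highest in double KO livers, lower in SMRT KO livers and lowest in controls. The 3 double KO livers had log2 values of 7.62, 7.70 and 7.68. The 3 SMRT KO livers had 7.40, 7.25 and 7.25, and the 3 controls had 6.31, 6.09 and 6.37. No 2 groups overlapped, and the lowest SMRT KO liver stood 0.88 above the highest control, while the lowest double KO liver stood 0.224 above the highest SMRT KO liver. The means were 7.67 ± 0.0408 in double KO, 7.30 ± 0.0829 in SMRT KO and 6.26 ± 0.147 in control livers (log2 values, SD, n = 3 each), so the controls were the most spread of the 3 groups. On the linear scale these means correspond to array signals of 203.4, 157.8 and 76.5 units.

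**Figure D1:**
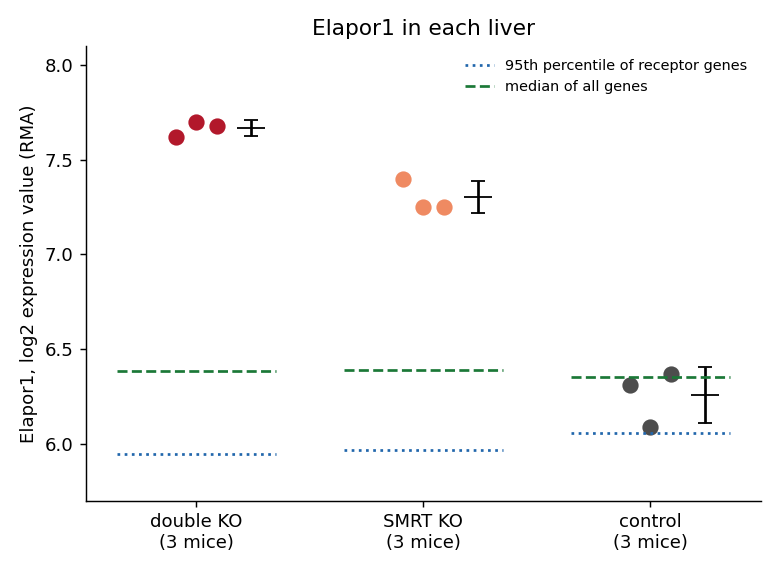
Elapor1 in each of the 9 livers (points, log2 RMA value) by group, with the group mean and SD beside them (bars, n = 3 mice); dashed lines mark the median of all genes in that group and dotted lines the 95th percentile of olfactory and vomeronasal receptor genes. The 3 groups do not overlap, and control replicate 2, at 6.09, lies nearest to the receptor line.

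SMRT KO livers had 2.06-fold the Elapor1 signal of controls (log2 difference 1.04, standard error 0.0839, 95% interval 0.86 to 1.23). Double KO livers had 2.66-fold the control signal (log2 difference 1.41, standard error 0.0839, 95% interval 1.22 to 1.60). Both differences rest on the same 3 control livers and are not separate observations. The intervals make no allowance for the gene having been chosen on these values. Between the knockouts, double KO livers had 1.29-fold the signal of SMRT KO livers (log2 difference 0.37, 95% interval 0.18 to 0.55). Leaving out any 1 mouse moved the SMRT KO minus control difference within 0.96 to 1.10, the double KO minus control difference within 1.33 to 1.47 and the difference between the knockouts within 0.34 to 0.41.

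The control level was close to the upper end of what the arrays show for genes that liver does not use. The 1394 measured olfactory and vomeronasal receptor genes served as that background, with a median of 3.96 in controls. Elapor1 exceeded 96.1% of them in controls, where 54 receptor genes were higher, and its mean lay 0.2 above their 95th percentile of 6.06. In SMRT KO livers it exceeded 99.5% of them and lay 1.33 above their 95th percentile, and in double KO livers it exceeded 99.8% and lay 1.72 above.

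Among all 22180 genes the Elapor1 signal stood in the upper part in both knockouts and near the middle in controls. It was higher than the signal of 71.0% of genes in double KO livers, 65.8% in SMRT KO livers and 47.9% in controls, where the median of all genes was 6.36. Its neighbours in that order were Snrnp48 and Mettl8 in double KO, Hand2 and Rit1 in SMRT KO, and Mlph and Pik3r5 in control livers. Probe sets differ in how strongly they hybridise, so these places describe array signal and not transcript number.

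The difference between SMRT KO and control livers was among the largest of any gene. Only 8 of 22180 genes had a larger positive difference in the mean, placing Elapor1 ninth, between Lyrm7 (1.04) and Cxcl13 (1.03), and counting both directions it was number 30. The median absolute log2 difference over all genes was 0.0701 and the 99th percentile 0.53. The 8 genes above it were Cyp26a1 (log2 difference 2.47), A1bg (1.82), Mir122 (1.63), Serpina7 (1.55), Nlrp1c-ps (1.48), 2610507I01Rik (1.38), Slc41a2 (1.14) and Lyrm7. These were named for their size here and are not tested. All 8 varied more between mice of a group, with within-group SDs of 0.281 to 0.576 against 0.1 for Elapor1. As given below, Elapor1 was the only gene called in this pair of groups, and this pair chose it. A gene with a larger difference and a smaller SD would also have been called, so the choice fixed this outcome.

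Elapor1 also separated the single mice widely. By the gap between the lowest SMRT KO and the highest control liver, Elapor1 was number 2 of all genes. The gene above it was Cyp26a1, which encodes the enzyme that breaks down retinoic acid, with a gap of 1.15. Its 3 SMRT KO livers had 9.73, 9.54 and 10.16 and its 3 controls 7.07, 6.57 and 8.39. In all, 842 genes, 3.8%, had every SMRT KO liver above every control. Elapor1 kept a place between 9 and 18 by difference, and between 2 and 5 by gap, when any 1 mouse was left out, and was farthest down by difference without SMRT KO replicate 1.

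Between double KO and control livers 38 genes had a larger positive difference in the mean than Elapor1. It stood between Colgalt2 (1.42) and Me1 (1.41), was number 60 in both directions together and number 19 by gap. All 38 genes again varied more within groups, which is a description too, since Elapor1 was chosen on these values. Between double KO and SMRT KO livers 547 genes had a larger positive difference, of which 495 varied more within groups, and Elapor1 stood between Chrna2 and Col15a1, each at 0.37. Every double KO liver lay above every SMRT KO liver in 1673 genes, 7.54%, and above every control in 1714 genes, 7.73%, so for these 2 pairs of groups the lack of overlap alone was common.

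**Figure D2:**
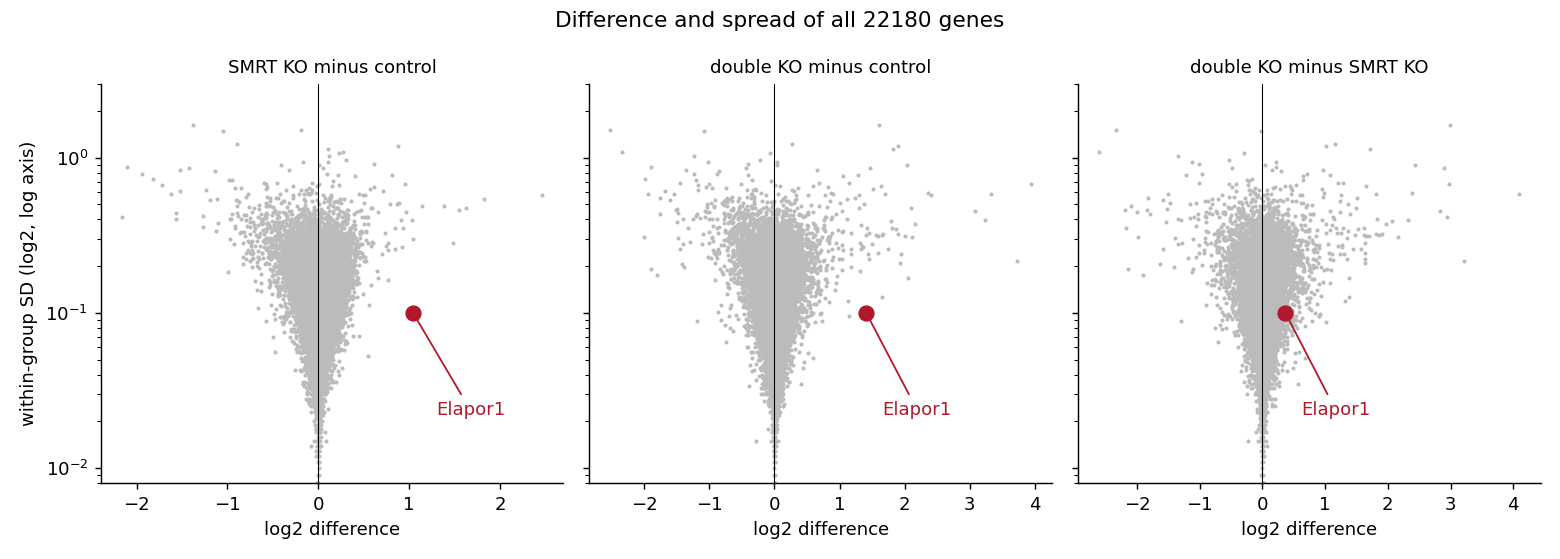
Each gene as a grey point by its log2 difference (x axis) and its within-group SD over the 9 livers (y axis, log scale), for the 3 pairs of groups, with Elapor1 in red; 9 genes with an SD under 0.008 lie below the axis. In both panels against control, Elapor1 (difference 1.04 and 1.41, SD 0.1) lies to the right of genes of like SD. In the third panel (0.37), 547 genes lie further to the right, 495 of them with a larger SD.

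The spread of Elapor1 was ordinary. Its within-group SD over all 9 livers was 0.1, against a median of 0.117 over all genes, and 37.7% of genes varied less. By group, 19.4% of genes had a smaller SD in double KO, 38.6% in SMRT KO and 70.9% in control livers. For context, limma called 1 of 22180 genes in SMRT KO against control livers at an adjusted p below 0.05 (0.00451%), which is Elapor1 itself, 187 in double KO against control (0.843%) and 263 in double KO against SMRT KO (1.19%). The contrast against control chose the gene, so its presence among these calls is not evidence for it. Leaving out SMRT KO replicate 1 or 3 gave 0 genes for the first count and leaving out replicate 2 gave 2, while leaving out control replicates 1, 2 and 3 in turn gave 3, 23 and 5. The second was 90, 61 and 91 without double KO replicates 1, 2 and 3, and 91 and 83 without control replicates 1 and 3. The last was 158, 101 and 152 without double KO replicates 1, 2 and 3, and 124 and 169 without SMRT KO replicates 1 and 2.

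The related gene Elapor2, the other member of the family in the mouse, had nearly equal means in the 3 groups. Its 3 double KO livers had 5.73, 5.79 and 5.79, its 3 SMRT KO livers 5.79, 5.94 and 5.60, and its 3 controls 5.80, 5.72 and 5.79. All 9 values lay below the 95th percentile of the receptor genes over the 9 arrays (5.96), so Elapor2 was not shown to be above background, and 4 of the 9 deposited values were identical. The groups overlapped, with log2 differences of 0.01 in SMRT KO minus control (limma adjusted p = 0.998) and -0.01 in double KO minus SMRT KO (0.994).

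The genes that act with ELAPOR1 or in the same compartments were examined through lists of lysosomal sorting, receptor uptake, lysosome, autophagy, estrogen signalling and secretory-cell genes. Leaving Elapor1 itself aside, 0 of the 104 measured members were called by limma in any of the 3 pairs of groups (0.00451%, 0.843% and 1.19% of all genes were). At an unadjusted p below 0.05 there were 4 in SMRT KO against control (6% of all genes), 12 in double KO against control (10.8%) and 10 in double KO against SMRT KO (10.5%). As shares of the 104, these lie near or below those of all genes. The median log2 difference of each list lay between -0.02 and 0.10 in every pair, against 0.00087 to 0.00359 over all genes.

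Ulk2, which encodes a kinase that starts autophagy, came nearest to a call. It had 9.37, 9.38 and 9.43 in double KO livers, 9.74, 9.71 and 9.59 in SMRT KO livers and 9.12, 9.17 and 9.09 in controls. The 3 groups did not overlap, and unlike Elapor1 its SMRT KO livers were the highest. Lack of overlap in either direction was found in 8.16% of all genes in SMRT KO against control. It was found in 15% in double KO against control and 13.8% in double KO against SMRT KO. The log2 difference of Ulk2 was 0.55 in SMRT KO against control (limma adjusted p = 0.0894) and -0.29 in double KO against SMRT KO (0.0733). Over 18 alternatives the first ranged from 0.0351 to 0.429, with calls in 2 of them (without control replicate 2 and among genes above the median level), and the second from 0.0346 to 0.224, also with calls in 2 (among genes above the median level and with array weights). For double KO minus control it was 0.26 (0.126).

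No other autophagy gene came as near. The next was Nbr1, with -0.21 in double KO against control livers (limma adjusted p = 0.185). Atg13, a subunit of the ULK complex, had -0.21 in SMRT KO against control livers. Atg14, which directs the lipid kinase that builds autophagosomes, had -0.43 in double KO against control livers (limma adjusted p = 0.423). Atg2a, a lipid transfer protein, had 0.24 in double KO against SMRT KO livers. The 28 genes had a median log2 difference of -0.02, -0.01 and -0.02 in SMRT KO minus control, double KO minus control and double KO minus SMRT KO.

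Among 25 measured lysosomal membrane proteins and hydrolases, the cholesterol exporter Npc1 had -0.24 in SMRT KO against control livers and the glucosidase Gaa 0.18. For double KO minus control, Gaa had 0.39 (limma adjusted p = 0.198) and the protease Ctsd 0.35 (0.173). Between the knockouts, the membrane protein Scarb2 had -0.33 and Ctsd 0.31 in double KO minus SMRT KO. Of these 25 genes, 12 were above 0 in SMRT KO and 13 in double KO livers, each against control. At an unadjusted limma p below 0.05 there was 1 in SMRT KO against control (6% of all genes). There were 5 in double KO against control, 4 of them higher (10.8% of all genes). In double KO against SMRT KO there were 5, with 2 higher and 3 lower (10.5% of all genes).

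The 17 genes of mannose 6-phosphate receptors and lysosomal sorting included the 2 receptors themselves. M6pr had a log2 difference of -0.0041 in SMRT KO and 0.13 in double KO livers against controls, and Igf2r had 0.01 and -0.07. Among the sorting receptors, Sorl1 was at 0.16 in SMRT KO and 0.39 in double KO against control livers. Sorl1 averaged 5.83 in controls, below the 95th percentile of the olfactory and vomeronasal receptor genes there. Its double KO livers were uneven, at 6.01, 6.66 and 5.98. Sort1 was at 0.26 in double KO against control and 0.27 in double KO against SMRT KO. The adaptor Gga2 had -0.15 in SMRT KO against control and 0.31 in double KO against SMRT KO, the largest of the list in that pair. Of the 17 genes, 8 were above 0 in SMRT KO against control, 13 in double KO against control and 14 in double KO against SMRT KO. None passed, with a lowest limma adjusted p of 0.356 in the list over the 3 pairs.

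The receptors whose uptake ELAPOR1 promotes in beta cells had log2 differences no further from 0 than 0.112 in any pair. Insr, the insulin receptor, averaged 9.91 in double KO, 9.99 in SMRT KO and 10.02 in control livers. Igf1r averaged 6.50 in double KO, 6.39 in SMRT KO and 6.45 in control livers. The insulin receptor substrate Irs2 had -0.26 in SMRT KO against control and 0.30 in double KO against SMRT KO, and Irs1 had 0.09 in SMRT KO against control. Among the clathrin adaptor subunits the furthest from 0 was Ap2a2, at 0.16 in double KO against control livers. The lowest limma adjusted p of these 16 genes was 0.493.

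Estrogen signalling genes and secretory-cell regulators also had 0 calls. Esr1, the main estrogen receptor of liver, averaged 9.74 in double KO, 9.36 in SMRT KO and 9.42 in control livers, a log2 difference of 0.33 in double KO against control and 0.38 in double KO against SMRT KO (limma adjusted p = 0.341 and 0.235). The cell cycle gene Ccnd1 had 0.36 in SMRT KO and 0.65 in double KO against control livers (0.864 and 0.206), and 0.29 in double KO against SMRT KO. Tff1 had 0.20 in SMRT KO against control, but it averaged 5.87 in controls, below the 95th percentile of the receptor genes there. Its SMRT KO livers were uneven, at 5.89, 6.33 and 5.97. Bhlha15, which encodes a helix-loop-helix factor of secretory cells, averaged 6.29 in double KO, 6.29 in SMRT KO and 6.30 in control livers, and its 3 SMRT KO values were identical. Of the unfolded protein response genes Xbp1 had -0.13 and -0.15, and Ern1 -0.07 and -0.18, in SMRT KO and double KO against control. Between the knockouts, the secretory vesicle gene Rab3d had 0.14 and Ern1 -0.11.

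**Figure D3:**
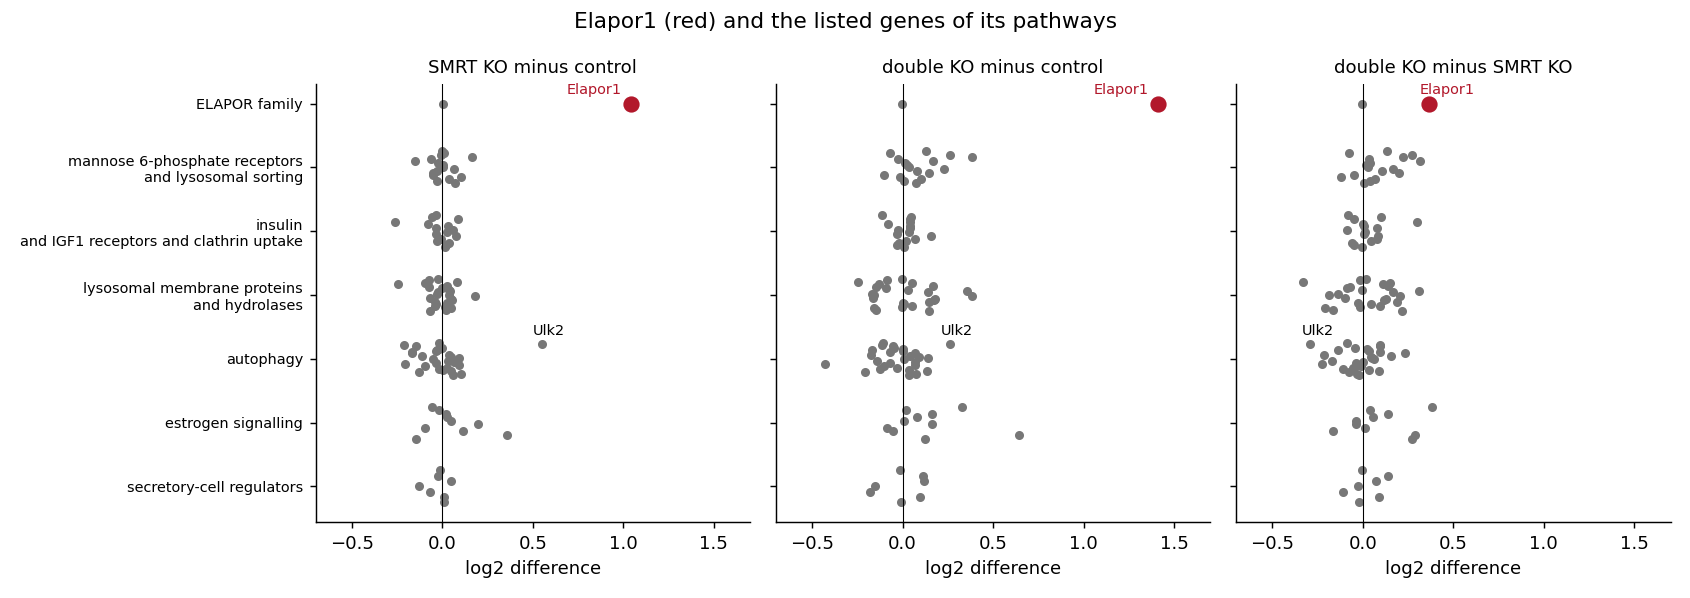
Log2 differences of each measured list member (grey points, one row per list) and of Elapor1 (red) for the 3 pairs of groups; Ulk2 is labelled. Elapor1 at 1.04 and 1.41 lies beyond every other listed gene in both panels against control, the nearest being Ulk2 (0.55) in SMRT KO and Ccnd1 (0.65) in double KO livers.

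The chromosomal neighbours of Elapor1 had much smaller differences. The 5 measured genes on either side were, in order, Mybphl, Gm12522, Psrc1, Celsr2 and Sars, then Elapor1, then 1700013F07Rik, Scarna2, Tmem167b, Taf13 and Wdr47. limma called 0 of these 10 in any pair of groups, and their lowest adjusted p was 0.471. At an unadjusted p below 0.05 there were 2 in SMRT KO against control, 0 in double KO against control and 1 in double KO against SMRT KO, where 6%, 10.8% and 10.5% of all genes were. Their log2 differences ran from -0.10 to 0.39 in SMRT KO and from -0.18 to 0.25 in double KO livers, each against control, and from -0.19 to 0.13 in double KO against SMRT KO.

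The highest of them was Psrc1, which encodes a protein of the mitotic spindle. It had 6.04, 5.94 and 5.94 in double KO livers, 5.94, 6.27 and 6.27 in SMRT KO livers and 5.67, 5.80 and 5.84 in controls. Its log2 difference in SMRT KO against control livers was 0.39 (limma adjusted p = 0.505), and its group means lay near the receptor percentile. Sars, the seryl-tRNA synthetase on the same strand as Elapor1, averaged 9.38 ± 0.0482 in double KO, 9.54 ± 0.0824 in SMRT KO and 9.47 ± 0.233 in control livers (SD, n = 3 each). The next gene beyond the start of Elapor1, 1700013F07Rik, lies on the opposite strand. It averaged 5.18 in double KO, 5.30 in SMRT KO and 5.07 in control livers, below the 95th percentile of the receptor genes in each group. Its log2 differences were 0.23 in SMRT KO and 0.11 in double KO against control (limma adjusted p = 0.695 and 0.65). SMRT KO livers did not overlap controls in 2 of the 10 neighbours, Psrc1 and 1700013F07Rik, against 8.16% of all genes in either direction. Double KO livers did not overlap controls in 4 of the 10 (15% of all genes) and did not overlap SMRT KO livers in 4 of the 10 (13.8%).

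**Figure D4:**
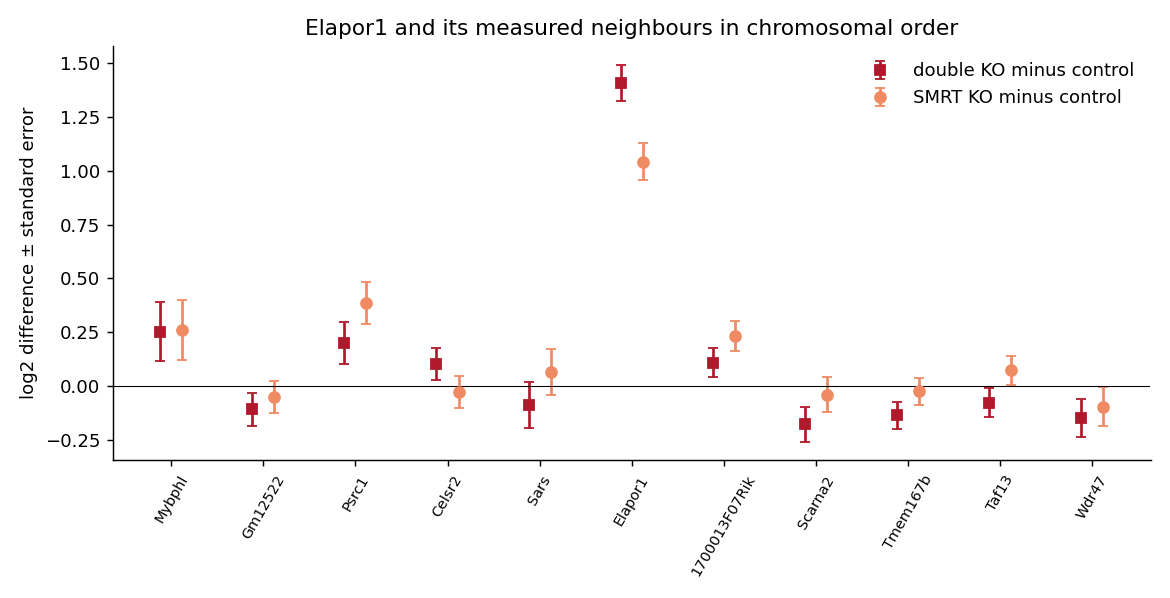
Log2 difference with its standard error for Elapor1 and the 5 measured genes on either side in chromosomal order (not to scale), for double KO minus control (squares) and SMRT KO minus control (circles). Elapor1 is at 1.41 and 1.04, and the 10 neighbours lie between -0.18 and 0.39.

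Genes whose values ran most like those of Elapor1 were ranked by Pearson's r over the 9 arrays, among the 13496 other genes with a group mean above the receptor percentile. The arrays of a group share their genotype, so a gene with a step between the genotypes scores highly, and r is a description of likeness in these 9 livers. The median r was 0.0339, with 7 genes above 0.9 and 11 below -0.9. The 8 most alike were Trem2 (0.960), Mif (0.941), Cd36 (0.930), Gpr137b (0.921), Sox17 (0.920), Cyp26a1 (0.915), Aldh1a7 (0.905) and Gm3045 (0.897). The most opposite were Nbr1 (-0.978), Nt5c (-0.953), Pnpla6 (-0.946) and Gm10778 (-0.944).

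Most of these genes followed Elapor1 in order but with much smaller steps. Trem2, a lipid-sensing receptor of macrophages, averaged 6.56 ± 0.0343 in double KO, 6.50 ± 0.0441 in SMRT KO and 6.33 ± 0.0276 in control livers (SD, n = 3 each). Mif, a cytokine gene, averaged 8.63 in double KO, 8.47 in SMRT KO and 8.26 in control livers. Sox17, a transcription factor gene of endothelium, had 7.10, 7.01 and 6.88 in the same order, and Gm3045 had 6.17, 6.12 and 6.04. The control mean of Gm3045 lay below the 95th percentile of the receptor genes in controls (6.06). Gpr137b, which encodes a lysosomal membrane protein, averaged 6.57 in double KO, 6.51 in SMRT KO and 6.13 in control livers.

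Cd36 and Cyp26a1 had the largest differences of these 12 genes, in different places. Cd36, the fatty acid transporter, had 11.12, 11.17 and 11.22 in double KO livers, 10.58, 10.49 and 10.46 in SMRT KO livers and 10.22, 9.69 and 9.67 in controls. Its steps were even, 0.65 in SMRT KO against control and 0.66 in double KO against SMRT KO. Cyp26a1 had 9.82, 9.77 and 9.65 in double KO livers, and so differed by -0.07 from SMRT KO livers after a difference of 2.47 between SMRT KO and control. Elapor1 lay between these, with 1.04 and 0.37. Aldh1a7, an aldehyde dehydrogenase, had 0.30 and 0.40.

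Nbr1, which encodes a cargo receptor of autophagy, ran most closely opposite to Elapor1. Its 3 double KO livers had 10.69, 10.69 and 10.70, its 3 SMRT KO livers 10.76, 10.78 and 10.78, and its 3 controls 10.89, 10.96 and 10.85. The groups did not overlap, but Nbr1 was picked for its r with Elapor1, whose groups do not overlap either. The choice thus favours such separation. Its steps were small, at -0.13 in SMRT KO and -0.21 in double KO against control. Nbr1 is also on the autophagy list and was not called in any pair (limma adjusted p = 0.83 and 0.185 for these steps). Nt5c, a nucleotidase, averaged 8.34 in double KO, 8.40 in SMRT KO and 8.60 in control livers. Pnpla6, a phospholipase, averaged 7.92, 7.98 and 8.22 in the same order. Gm10778 averaged 6.63, 6.68 and 6.80, with 4 of its 9 deposited values identical.

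The 12 genes were picked on the same 9 values, so their deviations within groups are part of what chose them and are given as a description. After each group's mean was subtracted, r with Elapor1 was -0.92 for Nbr1, -0.91 for Nt5c, 0.86 for Mif, 0.84 for Aldh1a7 and 0.81 for Gpr137b. It was 0.64 for Cyp26a1, 0.61 for Sox17, 0.33 for Trem2 and Cd36, 0.20 for Gm3045, -0.42 for Pnpla6 and -0.35 for Gm10778. Control replicate 2, the liver with the lowest Elapor1, was also the lowest of the 9 for Mif, Gpr137b, Sox17, Cyp26a1 and Aldh1a7 and the highest for Nbr1, Nt5c and Gm10778.

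**Figure D5:**
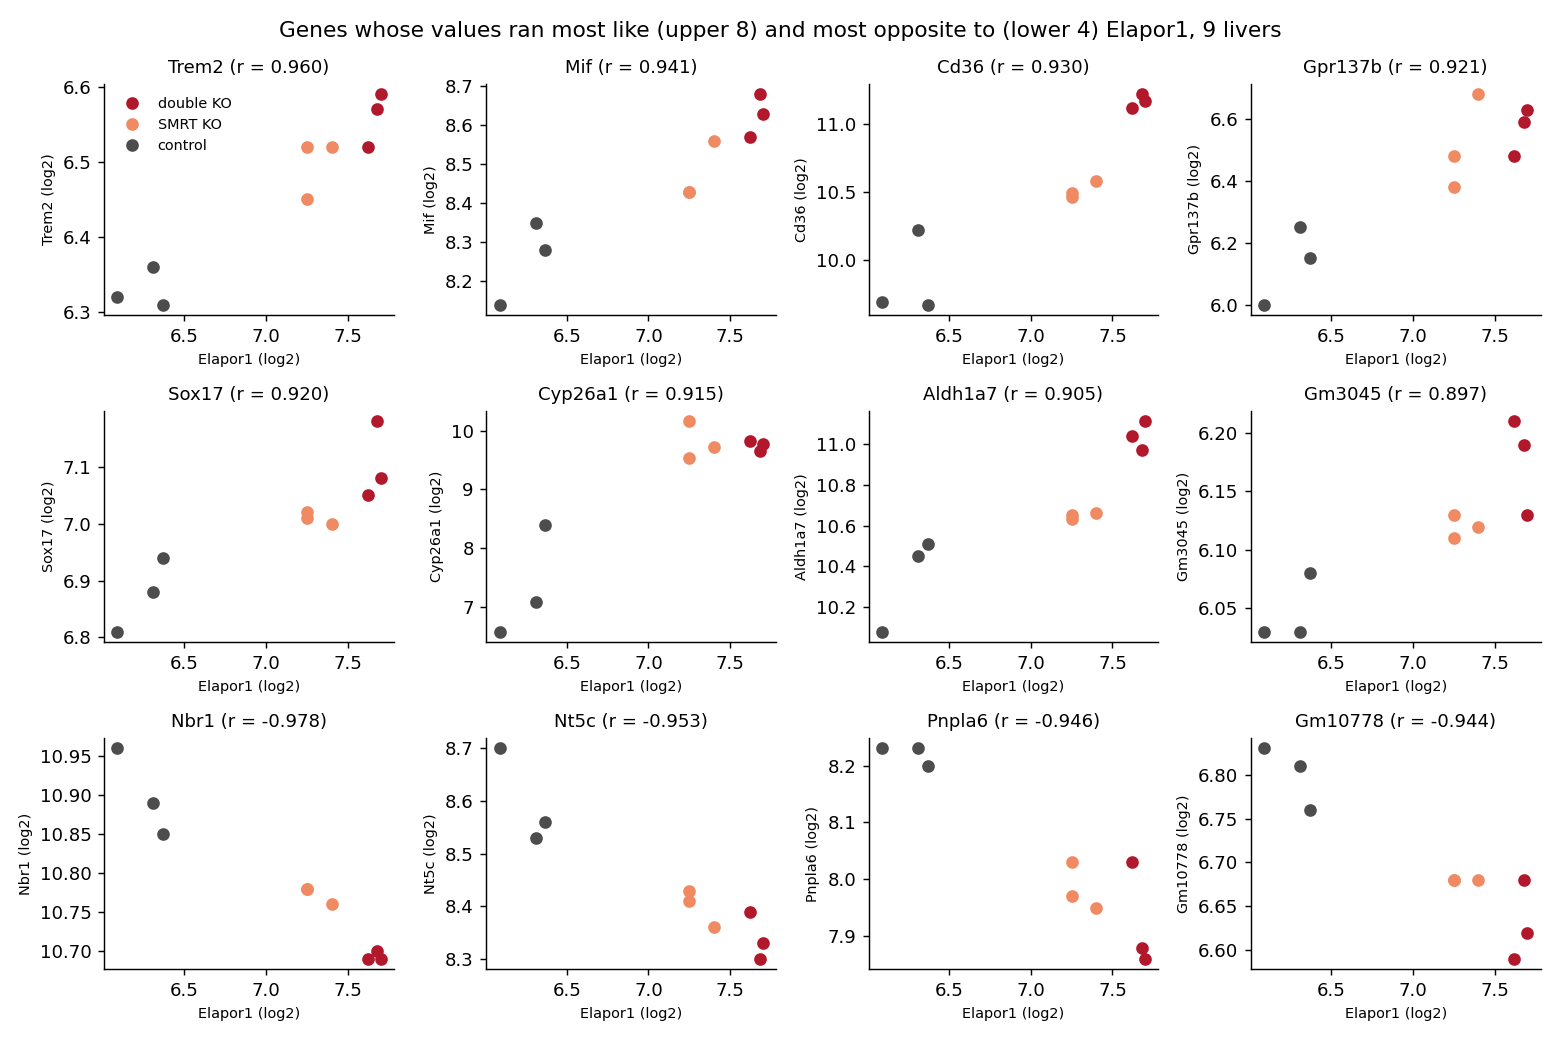
Each panel plots a gene's log2 value (y axis) against that of Elapor1 (x axis) in the 9 livers, coloured by group, for the 8 genes with the highest and the 4 with the lowest Pearson's r. Control livers lie at the left, SMRT KO livers in the middle and double KO livers at the right in every panel, and r runs from 0.897 to 0.960 and from -0.978 to -0.944.

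The livers carried the markers of liver, and markers of other cell types were read beside it. In whole tissue, fewer cells of a type and less RNA per cell cannot be told apart. The 7 measured hepatocyte markers all lay above the receptor percentile in each group, with a median log2 value of 13.4 and a summed linear signal of 74900 to 75800 in double KO, 77500 to 81200 in SMRT KO and 78100 to 82100 in control livers. Acinar and islet markers were read because Elapor1 is abundant in pancreas. The summed signal of the 9 measured acinar markers was 480 to 511 in double KO, 449 to 534 in SMRT KO and 485 to 519 in control livers, with 5 of them at or below the receptor percentile in all groups. The 7 islet markers summed to 401 to 446 in double KO, 394 to 420 in SMRT KO and 397 to 409 in control livers, with 4 at or below the percentile throughout.

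Some marker sums differed between groups. The hepatocyte sum given above was lower in every double KO liver than in any SMRT KO or control liver. Among single genes, 15% had no overlap between double KO and control and 13.8% between double KO and SMRT KO. Not all 7 hepatocyte markers were lower. In double KO livers 2 were above 0 against control and 1 against SMRT KO, and limma called 0. The 5 cholangiocyte markers summed to 378 to 415 in double KO, 359 to 381 in SMRT KO and 320 to 371 in control livers. The 11 Kupffer cell and macrophage markers summed to 4430 to 5210 in double KO, 5310 to 6170 in SMRT KO and 4440 to 5230 in control livers. All 11 were above 0 in SMRT KO against control (median log2 difference 0.24) and all 11 below 0 in double KO against SMRT KO (-0.23), and limma called 0, with 5 below an unadjusted p of 0.05 in each of these pairs (6% and 10.5% of all genes). The 8 endothelial markers summed to 5350 to 6470 in double KO, 6070 to 6480 in SMRT KO and 5250 to 6100 in control livers. Against control, 6 of the 8 were above 0 in each knockout, with a median log2 difference of 0.03 in SMRT KO and 0.06 in double KO. Lyve1 was the highest of them, at 0.77 and 0.59 (limma adjusted p = 0.505 and 0.276).

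Lymphocyte, neutrophil and erythroid signals were low. The 9 lymphocyte and plasma cell markers summed to 531 to 581 in double KO, 542 to 609 in SMRT KO and 505 to 549 in control livers. The 6 neutrophil markers summed to 220 to 238 in double KO, 229 to 230 in SMRT KO and 217 to 232 in control livers, and the 1 measured erythroid marker had 74.4 to 78.1, 67.3 to 83.3 and 68.8 to 76.3 in the same order. The 9 stellate cell markers summed to 5200 to 6790 in double KO, 6330 to 7530 in SMRT KO and 6160 to 7470 in control livers. Lrat, which encodes the enzyme that stores retinol as ester, was the 1 called marker of any list. It fell in double KO livers, with log2 differences of -1.80 against control (limma adjusted p = 0.000397) and -1.91 against SMRT KO (0.000391). Lrat was thus 1 of 9 stellate cell markers called in each of these pairs, where 0.843% and 1.19% of all genes were called. The part of any of these cell types in the Elapor1 differences was not tested.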

How the data were processed

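The deposited table holds log2 expression values, 1 for each of 41345 probe sets and 9 arrays, and per the submitters' processing notes the authors obtained them by RMA (version not given in the sources used here). Per the labels' protocols, each array took 200 ng of total RNA. RMA gives every array the same distribution and so hides any shift common to most genes. Array medians lay between 5.96 and 6.02, arrays correlated at 0.983 to 0.992, and arrays have no read depth, so their number limits the precision.

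Probe sets with exactly 1 symbol in the platform annotation were kept (23521, while 1814 had several and 16010 were not listed, of which 190 were controls). RefSeq identifiers (GRCm38.p6) gave 0 renamed symbols. Where a gene had several probe sets, the one with the highest mean was used, which left 22180 genes. Differences were fitted with limma 3.58.1 under R 4.3.3 (linear model and contrasts with eBayes, two-sided, Benjamini-Hochberg over all genes), in 1 model over the 9 arrays with 6 residual and 3.36 prior degrees of freedom. The script was tested on simulated data. A gene was called at an adjusted p below 0.05. An exact permutation test of 3 mice against 3 cannot go below 0.10 and was not used. P-values set a difference in means against the spread between mice of a group, as moderated by eBayes over all genes.

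The gene, the lists and the tests were chosen with earlier results of these data known. Named genes were both Elapor genes, the 8 most like and 4 most opposite in pattern, called list members or otherwise the 2 of largest difference, 5 measured neighbours on each side, and the genes next to Elapor1 in rank. The others named were chosen after their values were seen. Same-numbered mice of different groups deviated together at correlations of -0.085 to 0.117, so the numbers were not used as pairs.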

Additional observations from a re-analysis of the deposited data

How the results depend on the processing

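Each Elapor1 difference moved by less than the within-group SD when a mouse of either group compared was left out, after cyclic loess and after median centring. Leaving out a mouse of the other group, averaging probe sets (Elapor1 has 1) and the replicate block cannot move a difference of means in this balanced layout, so they say nothing of its stability. Counts of called genes over the whole table depended more on the fit. In SMRT KO against control, where 1 gene was called, 2 were called with the replicate block, 2 among genes above the median level and 0 with the third group left out of the model, with 0 to 23 when a mouse was left out. In double KO against control (187), the count was 109 with 2 groups modelled, 285 with array weights and 61 to 179 without a mouse. In double KO against SMRT KO (263), it was 124 with 2 groups modelled and 101 to 234 without a mouse. The replicate block gave 152 and 195 in these last 2 pairs. The causes were not tested. The 0 calls among pathway genes became 1, Ulk2, in SMRT KO against control without control replicate 2 (0 to 1 over the mice left out) and among genes above the median level. In double KO against SMRT KO they became 1, again Ulk2, among genes above the median level and with array weights. For double KO against control they stayed at 0 in all 18 alternatives run. Of the like genes, Gm3045 had an r of 0.769 after cyclic loess. With 3 mice per group and a control level near background, small differences in dim genes could not be resolved.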
